A study of Mus musculus with 32 samples.

Results

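The comparison described here is between metaphase II (MII) mouse oocytes that matured in follicles vitrified before culture and MII oocytes that matured in follicles never cooled. Its members were taken by their labels, all MII oocytes of both treatments, and came to 24 of the 32 oocytes of the series, 12 per treatment. All follicles were wild type (no strain or age of the mice is stated in the sources used here). Immature preantral follicles were vitrified or kept fresh, then grown in eIVFG, an encapsulated in vitro culture of follicles. After hCG on day 9 the ovulated MII oocytes were collected for single-oocyte sequencing, so oocytes of both groups shared the culture and the hormone, and only 1 group had been vitrified. The other 8 oocytes, 4 per treatment, were at the germinal vesicle (GV) stage on day 8 and are used only where a response in MII oocytes is set beside the one in GV oocytes. Every MII oocyte had come through vitrification where applied, growth, ovulation and maturation, so oocytes that did not reach MII are outside these values.

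As background, vitrification turns water in the cell into a glass instead of ice, with the help of cryoprotectants and very fast cooling. An MII oocyte is arrested at the metaphase of its second meiotic division and makes almost no new RNA. It lives on transcripts stored during growth, which are translated, kept silent or destroyed according to their 3′ ends. A stored mRNA with a cytoplasmic polyadenylation element, a short U-rich motif bound by the protein CPEB, can gain a long poly(A) tail and be translated during maturation, while many mRNAs of ribosomes and mitochondria lose their tails and are degraded. The library kit, SMART-Seq v4, starts cDNA synthesis at poly(A) tails, so a value can follow the amount of a transcript as well as its tail.

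Because tails matter to both the biology and the assay, the 3′ ends of 6 of the genes described below are shown first, 3 measured higher and 3 measured lower after vitrification. They were chosen after their values had been seen, and those measured higher were not taken strictly in order of p. Each is the sense strand, 5′ to 3′, of 30 bases ending with the poly(A) signal (AATAAA or ATTAAA, searched in the last 40 bases of the transcript), from GENCODE M21 on GRCm38, and the capitals mark that signal and any cytoplasmic polyadenylation element.

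Pole3: gagaagaTTTTAATgctttctacaAATAAA

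Siah1b: aatTTTTATtctagtttttcattaAATAAA

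Sytl4: tactttaatatgcatgtgtgtttcAATAAA

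Cox6c: gtgggctaaggaatagtttctttcAATAAA

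Pebp1: tgttgatcctccttgtcaagtacaAATAAA

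Cct2: ttcatttctcatactgtgtattaaAATAAA

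All 6 lie in 3′ untranslated exons on the minus strand, at chr4:62522670-62522699 for Pole3, chrX:164070719-164070748 for Siah1b, chrX:133936413-133936442 for Sytl4, chr15:35931997-35932026 for Cox6c, chr5:117282668-117282697 for Pebp1 and chr10:117051019-117051048 for Cct2. Pole3 and Siah1b carry an element close to the signal, and the windows of the other 4 hold none. Zdhhc13 and Agk, also measured higher and with a smaller p than Pole3 and Siah1b, are not shown. Their windows hold no element. Among the leading genes measured higher that are named below, only the windows of Pole3 and Siah1b hold one. The 6 ends are therefore examples and do not show how common the element is in either direction.

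Total counts per oocyte ran from 6196976 to 10142902, median 7763214, in fresh and from 5300208 to 12206512, median 6573728, in vitrified MII oocytes, a difference of means of −917831 (two-sided permutation test, p = 0.158). Within library numbers under 20 the difference was −1435414 (7 oocytes per group, exact permutation test, p = 0.179), and within those of 20 and over it was −193214 (5 per group, exact permutation test, p = 0.698). Without the 4 libraries rich in cumulus transcripts, named at the end of the paragraph, the difference was −1608861 (permutation test, p = 0.00099). Genes detected did not differ beyond their spread (permutation test, p = 0.192), with a mean of 10652 ± 521 in fresh and 10332 ± 629 in vitrified oocytes (SD, n = 12 each). Within the ranges of library numbers the differences were −479 (exact permutation test, p = 0.117) and −97.4 (exact permutation test, p = 0.738). Of 15 oocyte markers 14 passed the filter on low counts, and their summed level ran from 20295.8 to 48903.6 CPM (read counts scaled to a common library total) over both groups. Figla, the marker that did not pass, was at 1.71 CPM at most. Of 30 cumulus and granulosa markers in the table, 26 were not seen in nearly every oocyte, and their summed level was between 0.141 and 11.9 CPM in 19 oocytes. It reached 5309 CPM in fresh replicate 11 and 156 CPM in fresh replicate 1. Among vitrified oocytes it was 776 CPM in replicate 12, 122 CPM in replicate 7 and 83.3 CPM in replicate 1. Results are given below also without 4 of these libraries (fresh replicates 1 and 11, vitrified replicates 1 and 12), which had been planned. Leaving out vitrified replicate 7 as well was added after seeing the data.

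No gene passed the threshold. Of 8428 genes tested with edgeR's quasi-likelihood test, 0 (0%) had an adjusted p below 0.05, and limma-voom also called 0. At an unadjusted p below 0.05 there were 1053 genes, 500 measured higher (5.93% of those tested) and 553 lower (6.56%) in vitrified oocytes, against 961 with limma-voom. DESeq2 called 52 genes, 20 higher (0.237%) and 32 lower (0.38%), with 1167 at an unadjusted p below 0.05. For 5379 genes (63.8%) the 95% interval of the difference was narrow enough to lie within a 2-fold change either way, between −1 and 1 in log2 units, and for the remaining genes a 2-fold change is not outside the interval. No fit called more than 1 gene except DESeq2. The p-values rest on the spread between oocytes, and the sources used here do not name the mouse or culture behind each oocyte.

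Taken as whole profiles, oocytes of the same treatment were hardly more alike than oocytes of different treatment. Spearman's rho between the profiles of 2 oocytes had a median of 0.919 for pairs of the same treatment and 0.916 for pairs of different treatment when both library numbers were under 20 or both were 20 and over. It was 0.904 and 0.901 where 1 number was under 20 and the other was not. Library numbers in the labels form 2 ranges, 2 to 13 with 7 oocytes of each treatment and 20 to 25 with 5. Values within each number range are given below for some genes and lists only, and further list medians by range are given near the end.

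Leading genes are given here among those with a mean level of at least 4 on the log2 CPM scale. Those measured higher in vitrified oocytes were abundant and differed little. The 15 with the smallest p had log2 fold changes from 0.41 to 1.1, all 15 were above 0 within both ranges of library numbers and without the 4 libraries, and DESeq2 called all 15. They were chosen by p over the same oocytes, so this agreement partly follows from the choice and is no independent support. Their edgeR adjusted p ran from 0.19 to 0.197. Zdhhc13, a palmitoyltransferase that attaches fatty acids to membrane proteins, had the smallest p among them. Its level was 205 to 319 CPM, median 270, in fresh and 270 to 548 CPM, median 398, in vitrified oocytes. Vitrified oocytes were above the fresh median in 11 of 12 cases, and the ranges overlapped only between 270 and 319 CPM. The log2 fold change was 0.60 ± 0.13 (SE, edgeR adjusted p = 0.19).

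Sytl4 encodes granuphilin, an effector of Rab27 on secretory granules. Its level ran from 282 to 516 CPM, median 439, in fresh and from 456 to 802 CPM, median 593, in vitrified oocytes, so the lowest vitrified oocyte was above the fresh median. The log2 fold change was 0.52 ± 0.12 (SE). Agk, the acylglycerol kinase of mitochondria, was at 72.2 to 138 CPM, median 100.2, in fresh and at 103 to 267 CPM, median 141, in vitrified oocytes, and the highest value of 267 stood apart from the others. Its log2 fold change was 0.63 ± 0.15 (SE).

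Pole3, a histone-fold subunit of DNA polymerase epsilon, was at 266 to 628 CPM, median 448, in fresh and 454 to 852 CPM, median 675, in vitrified oocytes. All 12 vitrified oocytes were above the fresh median, with a log2 fold change of 0.53 ± 0.13 (SE). Siah1b, a ubiquitin ligase with close relatives among whose genes reads can be shared, ran from 518 to 927 CPM, median 695, in fresh and from 608 to 1324 CPM, median 1064, in vitrified oocytes. Its ranges overlapped widely and 10 of 12 vitrified oocytes were above the fresh median. The log2 fold change was 0.52 ± 0.13 (SE). Stradb, a pseudokinase partner of LKB1, was at 217 to 425 CPM, median 343, against 359 to 564 CPM, median 462, and its log2 fold change was 0.47 ± 0.12 (SE).

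The other 9 covered several functions. Itsn2 (log2 fold change 0.41) is an endocytic scaffold, Hmgn5 (1.1) a nucleosome-binding protein, Fbxl5 (0.51) the iron-sensing subunit of a ubiquitin ligase, Suclg2 (0.64) a subunit of succinyl-CoA ligase in the citric acid cycle and Gde1 (0.57) a phosphodiesterase of glycerophospholipids. Hsf5 (0.61) belongs to the heat shock factor family and is known from the male germ line, Il23a (0.84) encodes a cytokine subunit, and Msantd4 (0.55) and Fam107b (0.56) complete the list. Hmgn5 had the largest log2 fold change and was also uneven, with 22.7 to 158 CPM, median 41.5, in vitrified against 12.8 to 50.3 CPM, median 26.2, in fresh oocytes. Within library numbers under 20 its log2 fold change was 1.38, and within those of 20 and over it was 0.40.

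**Figure D1:**
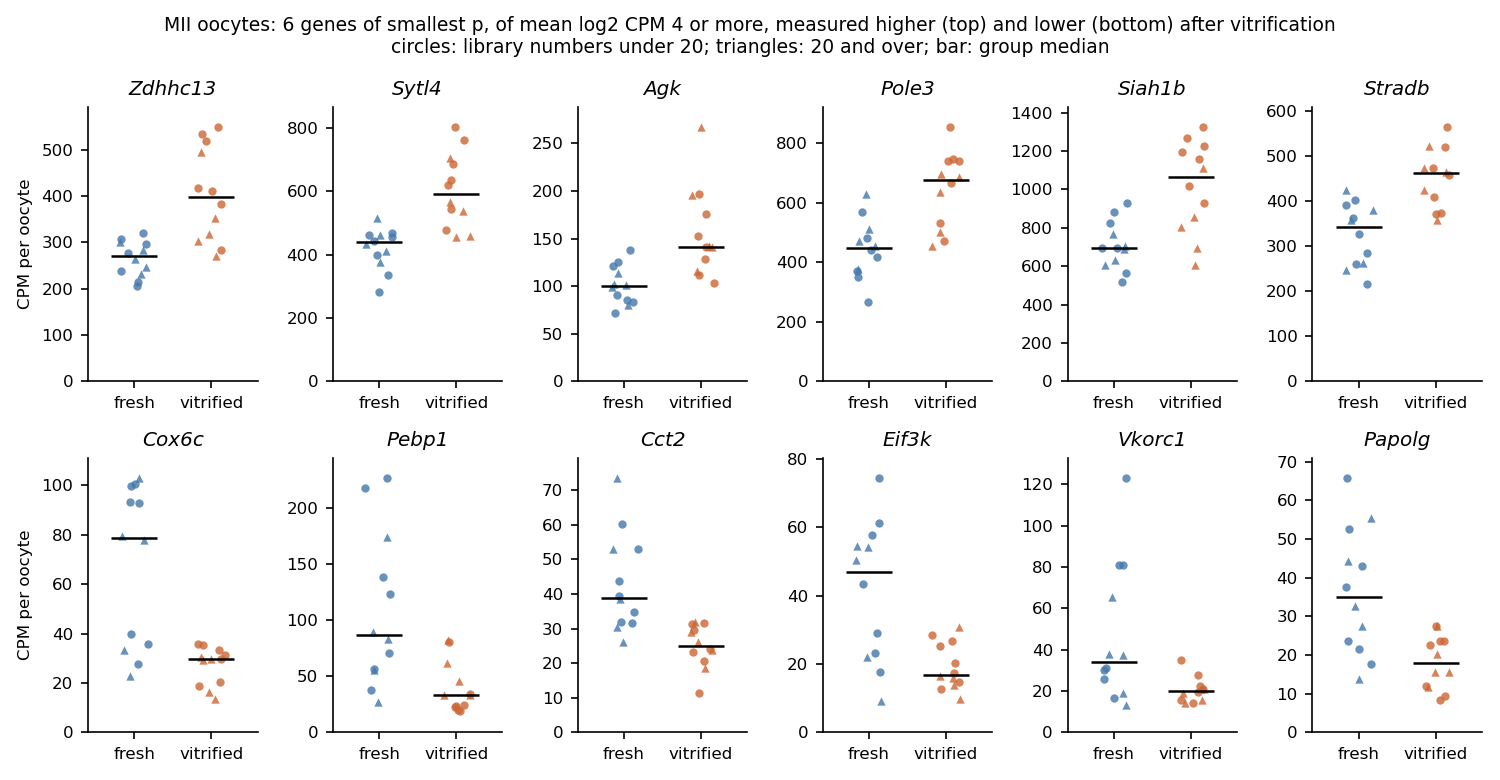
Level per MII oocyte in CPM (vertical axes, starting at 0) of the 6 genes with the smallest p among those of mean log2 CPM 4 or more measured higher (top) and lower (bottom) in vitrified oocytes, with 12 oocytes per group, bars at the medians, circles for library numbers under 20 and triangles for 20 and over. All 12 vitrified oocytes lie below the fresh median of 78.5 CPM for Cox6c and above the fresh median of 439 CPM for Sytl4, while the ranges of the groups overlap in every panel.

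The leading genes measured lower were less abundant and differed more. The 15 with the smallest p at a mean log2 CPM of at least 4 had log2 fold changes from −1.87 to −0.60, with a median mean level of 5.10 on the log2 CPM scale against 7.91 for the 15 measured higher. With no limit on level the 15 smallest p in each direction had medians of 4.78 and 7.91. The limit left out 7 genes measured lower and 1 measured higher whose p was below that of the last gene included. All 15 were called by DESeq2 and were below 0 within both ranges of library numbers and without the 4 libraries. Here too the agreement partly follows from choosing the genes by p over the same oocytes. Cox6c, a nuclear-encoded subunit of cytochrome c oxidase, had the smallest p of all genes tested. Its level was 22.7 to 103 CPM, median 78.5, in fresh and 13.6 to 35.7 CPM, median 29.7, in vitrified oocytes. Fresh oocytes fell into a set near 80 to 100 CPM and a set within or near the vitrified range, and all 12 vitrified oocytes were below the fresh median. The log2 fold change was −1.31 ± 0.25 (SE, edgeR adjusted p = 0.133), and it was −1.28 within library numbers under 20, −1.40 within those of 20 and over and −1.28 without the 4 libraries. Cox6c was called by DESeq2 (adjusted p = 0.0011) and in 5 further alternatives, each of which called this gene alone. Over 38 alternatives its adjusted p ran from 0.0011 to 0.876, the highest within library numbers of 20 and over.

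Pebp1, the Raf kinase inhibitor protein, was at 27.0 to 227 CPM, median 86.7, in fresh and at 19.2 to 83 CPM, median 33.5, in vitrified oocytes. Fresh oocytes spread widely and all 12 vitrified ones lay below their median. The log2 fold change was −1.43 ± 0.33 (SE), −1.96 within library numbers under 20 and −0.73 within those of 20 and over. Cct2, a subunit of the chaperonin that folds actin and tubulin, ran from 26.2 to 73.5 CPM, median 38.9, in fresh and from 11.3 to 32 CPM, median 25.1, in vitrified oocytes. The groups overlapped only between 26.2 and 32 CPM, and the log2 fold change was −0.77 ± 0.19 (SE). Eif3k, a subunit of translation initiation factor eIF3, was at 9.19 to 74.3 CPM, median 46.9, against 9.81 to 30.9 CPM, median 16.9, with a log2 fold change of −1.10 ± 0.27 (SE).

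Vkorc1, which recycles vitamin K, was at 13.4 to 123 CPM, median 34.3, in fresh and 14.1 to 35.2 CPM, median 20.1, in vitrified oocytes, and several fresh oocytes lay far above the vitrified range. Papolg, a nuclear poly(A) polymerase, ran from 13.9 to 65.7 CPM, median 35.1, and from 8.49 to 27.6 CPM, median 18. Their log2 fold changes were −1.19 ± 0.30 and −1.0 ± 0.25 (SE). Khdc3, a member of the subcortical maternal complex needed for normal cleavage of the embryo, had a log2 fold change of −1.17 ± 0.30 (SE), with 24.6 to 203 CPM, median 66.8, in fresh and 20.8 to 54.8 CPM, median 39.2, in vitrified oocytes. The remaining 8 were the respiratory chain genes Cox6a1 (−1.66), Cox7a2 (−1.04) and Ndufb6 (−1.0), the alpha-tubulin gene Tuba1c (−0.75, fractional in all 24 oocytes and so uncertain between near-identical tubulin genes), the splicing regulator Puf60 (−1.35), the Golgi protein gene Trip11 (−0.65), the interferon-inducible family member Ifit1bl2 (−0.60, also with close relatives) and Samd10 (−1.87). For Samd10 the difference was −2.53 within library numbers under 20 and −0.47 within those of 20 and over.

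Level and direction went together across all genes. By quintiles of mean level, the median log2 fold change was −0.24 in the lowest quintile, then −0.20, −0.09 and 0.02, and 0.14 in the highest. In the highest quintile 16.7% of genes were higher and 3.26% lower at an unadjusted p below 0.05, against 0.534% and 5.58% in the lowest. The interval was within 2-fold for 96.6% of genes in the highest quintile and for 12.1% in the lowest, so for most low genes a 2-fold change is not outside the interval. The 2 ends of this series kept their order within each range of library numbers, with medians of −0.22 and 0.19 for the lowest and the highest quintile within library numbers under 20 and of −0.20 and 0.07 within those of 20 and over. Without the 4 libraries the same medians were −0.12 and 0.14. The level of the zero line is set by the scaling: the median over all genes was −0.05 with the trimmed mean of M values and −0.17 with total counts, where the highest quintile had a median of 0.00 and the 1055 genes at an unadjusted p below 0.05 were split into 117 higher and 938 lower. The 100 most abundant genes took 32.8% to 47.2%, median 39.5%, of counts in vitrified and 33.2% to 42.4%, median 36.2%, in fresh oocytes, and the ranges overlapped. Within library numbers under 20 these medians were 40.7% and 36.0%, and within those of 20 and over 35.6% and 36.5%.

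**Figure D2:**
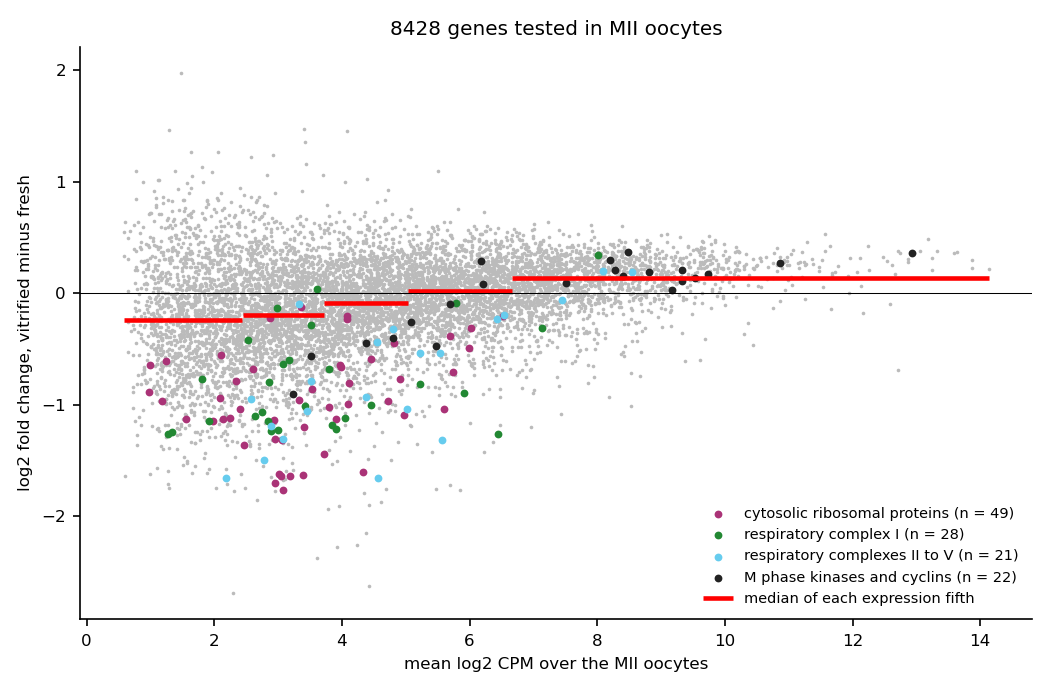
Log2 fold change, vitrified minus fresh (vertical axis), against mean log2 CPM over the 24 MII oocytes (horizontal axis) for the 8428 genes tested, with 4 gene lists in colour and red bars for the median of each quintile of mean level. The red bars go from −0.24 in the lowest quintile to 0.14 in the highest, and total count scaling would bring the highest bar to 0.00. Medians of the ribosomal list (−0.97), complex I (−0.95) and complexes II to V (−0.79) lie below every bar. Single members do not all do so, and 2 genes of complex I and 2 of complexes II to V lie above 0.

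Transcripts of the cytosolic ribosome, the machine of protein synthesis, had negative log2 fold changes as a group, and the size of the difference depended on 1 fresh oocyte. Of 79 ribosomal protein genes in the table, 49 passed the filter on low counts. Of these 49, all were below 0 (54.7% of all genes tested were), 18 were lower (36.7%, against 6.56% of all genes) and 0 higher (against 5.93%) at an unadjusted p below 0.05, and their median log2 fold change was −0.97 against −0.05 for all genes. Their transcripts were short, with a median length of 1094 bases against 3593 for all genes. In the quintile of shortest transcripts, 398 to 2130 bases, 11.8% of genes were lower and 5.91% higher. The part of length in the difference was not tested. With no filter, 79 of 79 were below 0 (59.3% of all genes in that fit were) with a median of −1.11, beside −0.12 for all genes. Without fresh replicate 11 alone, 38 of 49 were below 0, 6 were lower and 0 higher at an unadjusted p below 0.05, and the median was −0.39. Over all 8472 genes of that fit, 4328 were below 0, 566 were lower and 531 higher. Leaving out the 4 libraries, 36 of 44 were below 0 with 6 lower and a median of −0.43, and without the 5 libraries 42 of 46 with 10 lower and a median of −0.46. Over all 8308 genes of the fit without the 4 libraries, 4233 were below 0, 452 were lower and 451 higher. Over all 8451 genes of the fit without the 5, these counts were 4342, 390 and 359. Within library numbers under 20 the median was −0.49, and within those of 20 and over, which include fresh replicate 11, it was −1.37. The summed level of the list was 363 to 4984 CPM, median 795, in fresh and 361 to 1318 CPM, median 603, in vitrified oocytes. The value of 4984 was that of fresh replicate 11, the oocyte with the most cumulus and granulosa RNA, and the other 11 fresh oocytes lay between 363 and 1770 CPM. The part of cumulus RNA in the difference was not tested beyond these values.

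Among single ribosomal genes, Rplp1, an acidic stalk protein, had the smallest p. It was at 1.23 to 24 CPM, median 11.1, in fresh and at 1.95 to 7.33 CPM, median 3.30, in vitrified oocytes, and all 12 vitrified oocytes were below the fresh median. Its log2 fold change was −1.62 ± 0.41 (SE) and −1.71 without the 4 libraries. DESeq2 called it with an adjusted p of 0.0255, against 0.19 with edgeR and 0.0255 to 0.876 over 38 alternatives. Rpl27 (−1.20) and Rpl10 (−1.04), proteins of the large subunit, followed, and Rpl10 was −0.66 without the 4 libraries. Ribosomal genes have many near-identical pseudogenes, among which the authors' counting could split reads. In GV oocytes the list had a median of −0.38.

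Nuclear genes of the respiratory chain, which carries electrons to oxygen in the mitochondrial inner membrane and drives ATP synthesis, had the next lowest medians. Complex I, the NADH dehydrogenase, had 28 of 38 genes tested, 26 of them below 0, with a median of −0.95 on the log2 scale, and 16 were lower (57.1%) and 1 higher (3.57%) at an unadjusted p below 0.05. Complexes II to V had 21 of 27 genes tested, 19 of them negative, with 11 lower (52.4%) and 0 higher at that p and a median of −0.79. With no filter on low counts 36 of 38 and 25 of 27 were below 0 (59.3% of all genes were), with 19 and 14 lower. In that fit 972 of 13175 genes were lower and 645 higher. Median transcript lengths of the tested members were 1093.5 bases for complex I and 1116 for complexes II to V. DESeq2 called 4 complex I genes (Ndufb6, Ndufa4, Ndufa8 and Ndufb8) and 3 of complexes II to V (Cox6c, Cox6a1 and Cox7a2), all lower. Cox14, an assembly factor of cytochrome c oxidase outside the lists and named after its value was seen, was called as well.

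Of complex I, Ndufa4, long counted in this complex and since assigned to cytochrome c oxidase, was at 19.0 to 286 CPM, median 92.8, in fresh and 22.7 to 109 CPM, median 43.1, in vitrified oocytes, and 10 of 12 vitrified oocytes were below the fresh median. Its log2 fold change was −1.26 ± 0.34 (SE). Ndufa8 was at 6.62 to 61.5 CPM, median 15.5, against 2.78 to 14.7 CPM, median 7.77, so every vitrified oocyte was below the fresh median, with a log2 fold change of −1.22 ± 0.33 (SE). Without the 4 libraries these values were −1.45 and −0.85. Cox6a1, a subunit of cytochrome c oxidase like Cox6c, ran from 4.43 to 90.2 CPM, median 31.3, and from 3.48 to 26.8 CPM, median 9.20, with a log2 fold change of −1.66 ± 0.43 (SE).

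Without fresh replicate 11 alone the medians were −0.56 for complex I, with 9 genes lower and 1 higher at an unadjusted p below 0.05, and −0.26 for complexes II to V, with 5 lower and 0 higher. Counts over all genes in the fits without libraries were those given for the ribosomal list. Without the 4 libraries the medians were −0.64 (9 lower) and −0.35 (6 lower), without the 5 libraries −0.72 (10 lower) and −0.51 (7 lower), within library numbers under 20 −0.70 and −0.24, and within those of 20 and over −1.0 and −1.14. Summed complex I transcripts were at 428 to 1598 CPM, median 917, in fresh and at 490 to 1042 CPM, median 765, in vitrified oocytes, and the 3 highest fresh oocytes after fresh replicate 11 were at 1372, 1300.2 and 1249.8 CPM. Summed complexes II to V overlapped almost wholly, at 816 to 2112 CPM, median 1313, and 852 to 1566 CPM, median 1279, and the log2 fold changes of their most abundant members, Uqcrc2 and Sdha, were 0.19 and 0.20. In GV oocytes the medians were −0.28 and −0.42. Counts of mitochondrially encoded subunits were not analysed here.

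**Figure D3:**
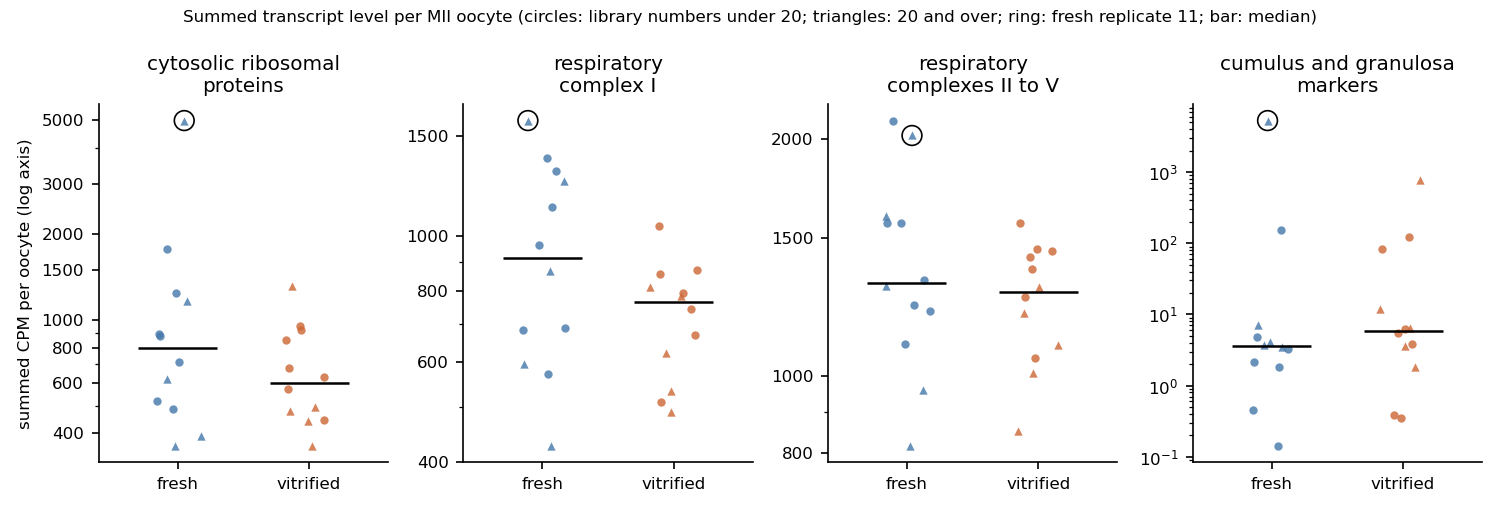
Summed CPM per MII oocyte (vertical log axes) of cytosolic ribosomal protein genes, complex I genes, genes of complexes II to V, and the 26 cumulus and granulosa markers not seen in nearly every oocyte, for 12 fresh and 12 vitrified oocytes, with bars at the medians, circles for library numbers under 20 and triangles for 20 and over. The ringed fresh replicate 11 is highest for ribosomal genes (4984 CPM), complex I (1598 CPM) and cumulus markers (5309 CPM), and the groups overlap in all panels.

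Other housekeeping machines differed less or in a way that rested on few libraries. For these and the lists that follow, lower and higher refer to an unadjusted p below 0.05, which 6.56% and 5.93% of all genes tested reached, and a share near these is no result about a list. For fits with no filter or without libraries, the counts over all genes are those given above. Mitochondrial ribosomal proteins had a median log2 fold change of −0.27 over 64 of 78 genes tested (5 lower, 7.81%, and 1 higher, 1.56%), and −0.04 without either the 4 libraries or fresh replicate 11 alone. The proteasome, which degrades tagged proteins, had a median of −0.23 over 33 of 40 genes (8 lower, 24.2%, and 2 higher, 6.06%). The median was −0.06 without the 4 libraries, and −0.04 without fresh replicate 11 alone, with 1 lower and 1 higher in either case. Psmb2, a beta subunit of the core particle, was at 130 to 571 CPM, median 339, in fresh and 124 to 311 CPM, median 170, in vitrified oocytes, all 12 below the fresh median. Its log2 fold change was −0.75 ± 0.23 (SE, edgeR adjusted p = 0.203). Psmd1, a regulatory-particle subunit, was at 0.27 ± 0.11 (SE), so subunits of 1 complex had opposite signs.

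The chaperonin CCT had 7 of 8 genes tested with a median of −0.47, which was −0.22 without the 4 libraries or without fresh replicate 11 alone, with 3 lower (42.9% of 7) and 0 higher in each case. Besides Cct2, its subunits Cct5 (−0.92 ± 0.28, SE) and Tcp1 (−0.76 ± 0.24, SE) had an unadjusted p below 0.05, and all 12 vitrified oocytes were below the fresh median for both. In GV oocytes the list's median had the other sign, 0.37. The summed CCT level was not lower, at 775 to 1676 CPM, median 929, in fresh and 723 to 1738 CPM, median 1086, in vitrified MII oocytes. Within library numbers of 20 and over these medians were 1183 and 962 CPM. Among translation initiation factors, 43 of 46 tested with a median of −0.16, 7 were lower (16.3%) and 2 higher (4.65%), and with no filter 5 and 2. Without fresh replicate 11 alone their median was −0.01, with 4 lower and 2 higher. Within library numbers under 20 it was −0.01, with 5 lower and 5 higher. Eif4a1, the RNA helicase of the cap-binding complex, was at 480 to 881 CPM, median 732, in fresh and 704 to 1272 CPM, median 949, in vitrified oocytes (log2 fold change 0.46 ± 0.13, SE), whereas Eif1b was at −0.61 ± 0.23 (SE).

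**Figure D4:**
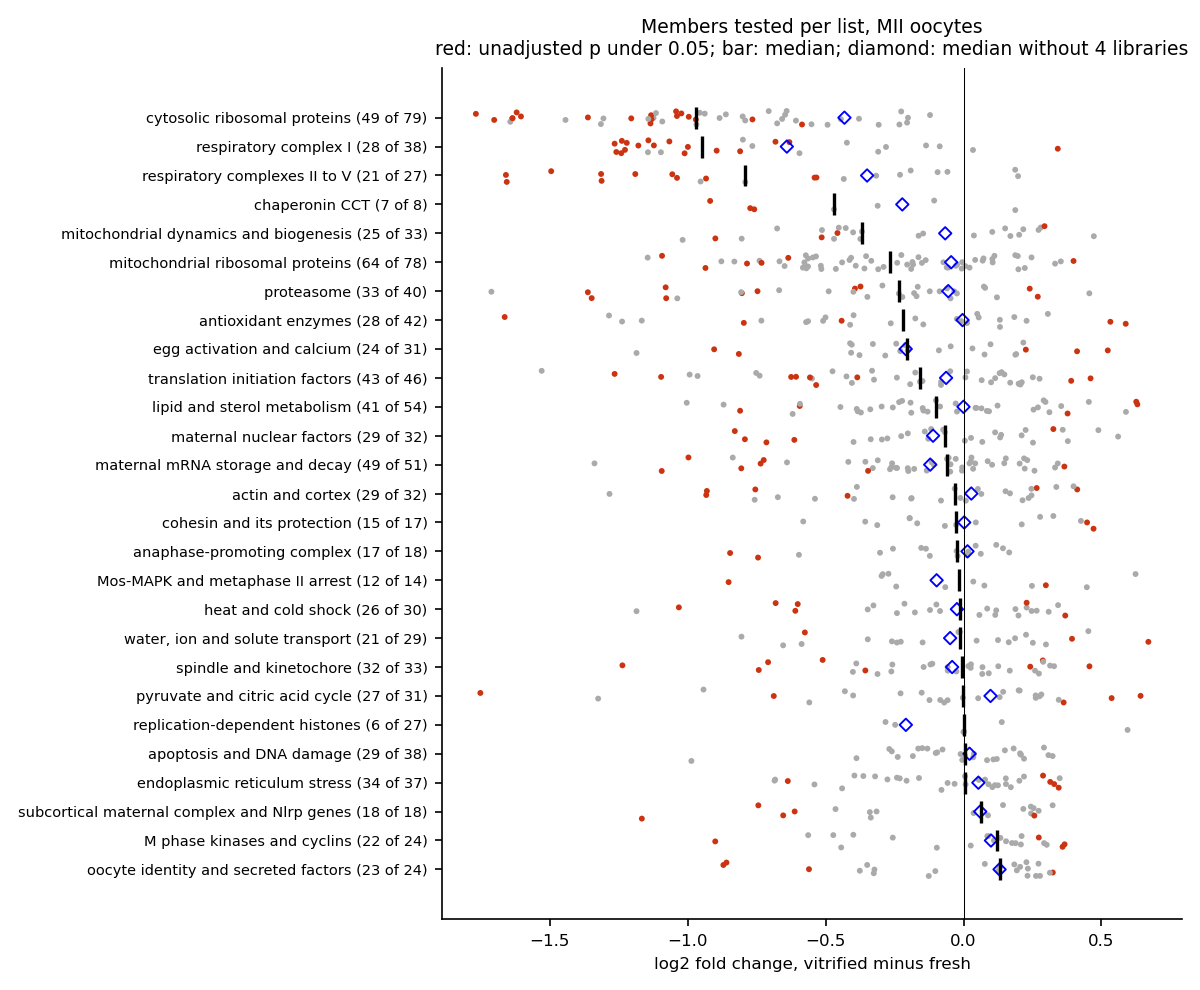
Log2 fold changes, vitrified minus fresh (horizontal axis), of the tested members of 27 gene lists (rows, with the number tested of those in the table), in red where the unadjusted p was below 0.05, with a black bar at each median and a blue diamond at the median without the 4 libraries with many cumulus transcripts. Cytosolic ribosomal proteins and complex I lie lowest with medians of −0.97 and −0.95, their diamonds are at −0.43 and −0.64, and most other lists centre near the −0.05 of all genes.

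The cell cycle machinery that holds an oocyte at metaphase II showed small differences. M phase kinases and cyclins had 22 of 24 genes tested, 7 below 0, a median of 0.12 (−0.03 with total count scaling) and 18 intervals within 2-fold (63.8% of all genes had such an interval). Of these genes 1 was lower (4.55%) and 3 higher (13.6%). Ccnb1, the cyclin that activates CDK1, was at 4813 to 10133 CPM, median 6809, in fresh and 5415 to 12666 CPM, median 8326, in vitrified oocytes, overlapping almost wholly. Its log2 fold change was 0.36 ± 0.15 (SE, edgeR adjusted p = 0.346), 0.57 within library numbers under 20 and 0.00 within those of 20 and over. Wee2, the oocyte kinase that inhibits CDK1, was at 0.27 ± 0.10 (SE), with 11 of 12 vitrified oocytes above the fresh median. Ensa, an inhibitor of the phosphatase PP2A once phosphorylated by Greatwall kinase, was the exception, at 5.54 to 18.3 CPM, median 13.6, in fresh and 3.29 to 10.4 CPM, median 6.02, in vitrified oocytes. All 12 vitrified oocytes were below the fresh median for Ensa, its log2 fold change was −0.90 ± 0.23 (SE), and DESeq2 called it (adjusted p = 0.0274, against 0.19 with edgeR and 0.0274 to 0.876 over 38 alternatives).

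The Mos-MAPK pathway, which keeps the arrest until fertilization, had 12 of 14 genes tested, 1 lower and 1 higher (8.33% each), with a median of −0.02. Mos, its upstream kinase, was at 388 to 3590.1 CPM, median 2079.6, in fresh and 678 to 3446 CPM, median 1625, in vitrified oocytes, and its log2 fold change of −0.07 ± 0.30 (SE) had a 95% interval from −0.69 to 0.56. Map2k1, the MAPK kinase below Mos, was at 0.30 ± 0.11 (SE) with all 12 vitrified oocytes above the fresh median, and Mapk3 (ERK1) at −0.85 ± 0.26 (SE), with −1.41 within library numbers under 20 and −0.08 within those of 20 and over. The anaphase-promoting complex, the ligase that ends the arrest, had a median of −0.03 over 17 of 18 genes, 2 of them lower (11.8%) and 0 higher, with its ubiquitin-conjugating partner Ube2c at −0.85 ± 0.28 and its catalytic subunit Anapc11 at −0.75 ± 0.25 (SE).

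Spindle and kinetochore genes had a median of 0.00 over 32 of 33 genes tested, 28 intervals within 2-fold, 5 genes lower (15.6%) and 3 higher (9.38%). Tacc3, a spindle-pole and microtubule stabilizing factor, was at 82.1 to 253 CPM, median 115, in fresh and 45.1 to 128 CPM, median 88.9, in vitrified oocytes (log2 fold change −0.71 ± 0.20, SE). Prc1, a microtubule bundler of the central spindle, went the other way at 0.46 ± 0.18 (SE), with all 12 vitrified oocytes above the fresh median. Cohesin and its protectors, which hold sister chromatids together, had 14 of 15 intervals within 2-fold and a median of −0.03, with 0 genes lower and 2 higher (13.3%), Stag2 (0.47 ± 0.17, SE) and Cdca5 (0.45 ± 0.19, SE). Cdca5, the cohesin-stabilizing sororin, was at 0.88 within library numbers under 20 and at −0.11 within those of 20 and over.

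Actin and cortex genes, which move the spindle and anchor cortical granules, had a median of −0.03 over 29 of 32 genes, 4 lower (13.8%) and 2 higher (6.90%). Lower values were held by the actin monomer regulators Cfl1, at 33.5 to 207 CPM, median 124, in fresh and 21.4 to 98.1 CPM, median 59.8, in vitrified oocytes (log2 fold change −0.93 ± 0.26, SE), and Pfn1 (−0.75 ± 0.26, SE). All 12 vitrified oocytes were below the fresh median for Cfl1 and 11 of 12 for Pfn1. Maternal mRNA storage and decay had a median of −0.06 over 49 of 51 genes, with 6 lower (12.2%) and 1 higher (2.04%). Ddx6, an RNA helicase of repressed maternal mRNA, was at −1.09 ± 0.32 (SE) with all 12 vitrified oocytes below the fresh median, and Cnot1, the scaffold of the CCR4-NOT deadenylase, at −0.74 ± 0.27 (SE). Btg4, the adaptor that brings this deadenylase to maternal mRNA, was among the most abundant transcripts, at 7619 to 15369.8 CPM, median 9774, in fresh and 7143 to 25302 CPM, median 13044, in vitrified oocytes. Its log2 fold change was 0.37 ± 0.17 (SE), 0.58 within library numbers under 20 and −0.04 within those of 20 and over.

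Genes that define the oocyte or serve the early embryo were mixed in sign. The subcortical maternal complex and Nlrp genes, 18 of 18 tested, had a median of 0.06 with 4 lower (22.2%) and 1 higher (5.56%). Beside Khdc3, the lower ones were Padi6 (−0.74 ± 0.25, SE), Tle6 (−0.65 ± 0.22, SE) and Nlrp5 (−0.61 ± 0.29, SE), all needed by the cleaving embryo. Padi6 was at 137 to 1217 CPM, median 475, in fresh and 180 to 446 CPM, median 284, in vitrified oocytes, and all 12 vitrified oocytes were below the fresh median. Of maternal nuclear factors, 29 of 32 tested with a median of −0.07, 4 were lower (13.8%) and 1 higher (3.45%). Dnmt1, the maintenance DNA methyltransferase, was at −0.71 ± 0.28 (SE), with −1.07 within library numbers under 20 and 0.18 within those of 20 and over. Dppa3, which protects maternal methylation, was at 0.07 ± 0.21 (SE; −0.10 with total count scaling), and its 95% interval from −0.36 to 0.50 lay within 2-fold.

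Oocyte identity and secreted factors, 23 of 24 tested, had a median of 0.13, 3 lower (13%) and 1 higher (4.35%), and 20 intervals within 2-fold. Gdf9, the growth factor the oocyte sends to its granulosa cells, was at 3572 to 7719 CPM, median 4961, in fresh and 4754 to 7999 CPM, median 6234, in vitrified oocytes, with 11 of 12 above the fresh median and a log2 fold change of 0.32 ± 0.12 (SE). Bmp15, its partner, was at 0.28 ± 0.20 (SE) with an interval from −0.12 to 0.68. The zona pellucida genes, whose proteins form the egg coat, were below 0, at −0.87 ± 0.29 for Zp1, −0.35 ± 0.26 for Zp2 and −0.56 ± 0.21 for Zp3 (SE). Zp3 was at 155 to 699 CPM, median 444, in fresh and 164 to 373 CPM, median 298, in vitrified oocytes, all 12 below the fresh median. Zp1 was at −1.52 within library numbers under 20 and at 0.09 within those of 20 and over.

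Genes of egg activation and calcium had a median of −0.21 over 24 of 31 genes tested, with 2 lower (8.33%) and 3 higher (12.5%), and of −0.29 with no filter. The inositol trisphosphate receptor Itpr1, the calcium channel of fertilization, was at 17.9 to 41.9 CPM, median 26.2, in fresh and 13.7 to 29.1 CPM, median 23.1, in vitrified oocytes, with a log2 fold change of −0.28 ± 0.16 (SE). Calm2, a calmodulin gene, was at −0.90 ± 0.38 (SE) and at −0.62 without the 4 libraries. Snap23, a membrane fusion protein of cortical granule release, was at 0.41 ± 0.15 (SE).

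Lists tied to cooling and stress differed in how many members had a low p. Heat and cold shock genes, 26 of 30 tested, had a median of −0.01 with 4 lower (15.4%, against 6.56% of all genes) and 2 higher (7.69%, against 5.93%). The lower ones were the chaperones Hsph1 (−1.03 ± 0.34, SE), Hspa4 (−0.68 ± 0.23, SE), Dnaja1 (−0.61 ± 0.22, SE) and Hspa8, the constitutive HSC70, at −0.60 ± 0.27 (SE). Hspa8 was at −0.17 without the 4 libraries, and Dnaja1 and Hspa8 were fractional in all 24 oocytes. Endoplasmic reticulum stress genes, 34 of 37 tested, had a median of 0.01 with 1 lower (2.94%) and 4 higher (11.8%), among them Ppp1r15a (GADD34), which restores translation after stress, at 198 to 356 CPM, median 244, in fresh and 220 to 417 CPM, median 308, in vitrified oocytes (log2 fold change 0.29 ± 0.12, SE). Apoptosis and DNA damage genes, 29 of 38 tested, had 0 lower and 0 higher (1 and 0 of 38 with no filter), a median of 0.01 and 24 intervals within 2-fold.

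Antioxidant enzymes, 28 of 42 tested, had a median of −0.22 with 3 lower (10.7%) and 2 higher (7.14%). The median was 0.00 without the 4 libraries and −0.40 with no filter, where that of all genes was −0.12. Gpx3, a secreted glutathione peroxidase, was at 16.7 to 48.4 CPM, median 36.2, in fresh and 31.7 to 79.9 CPM, median 50.5, in vitrified oocytes (log2 fold change 0.59 ± 0.17, SE). Gpx4, the lipid peroxide reductase, had the largest fold in the list, −1.66 ± 0.76 (SE), but it was −0.04 without the 4 libraries. Water, ion and solute transport, 21 of 29 tested, had a median of −0.01 (−0.24 with no filter) with 1 lower (4.76%) and 2 higher (9.52%). These were the gap junction genes Gja4, connexin 37 of the oocyte surface (−0.58 ± 0.20, SE), and Gjc1 (0.67 ± 0.31, SE), and the aquaglyceroporin Aqp9 (0.39 ± 0.19, SE), a channel for water and small solutes. Slc6a9, the glycine transporter that sets oocyte volume, was at −0.26 ± 0.37 (SE), with −0.83 within library numbers under 20 and 0.89 within those of 20 and over.

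Of the metabolic lists, mitochondrial dynamics and biogenesis had a median of −0.37 over 25 of 33 genes, with 3 lower (12.0%) and 1 higher (4.00%), which was −0.01 without fresh replicate 11. Lipid and sterol metabolism had a median of −0.10 over 41 of 54, with 2 lower (4.88%), including the fatty acid oxidation enzyme Hadha (−0.81 ± 0.25, SE), and 3 higher (7.32%), including Agk and Sgms2, a sphingomyelin synthase (0.63 ± 0.26, SE). Pyruvate and citric acid cycle genes had a median of 0.00 over 27 of 31, with 2 lower (7.41%) and 3 higher (11.1%). Ldhb, lactate dehydrogenase B and a very abundant oocyte transcript, was at 3725 to 14677 CPM, median 7735, in fresh and 2535 to 8354 CPM, median 4916, in vitrified oocytes (log2 fold change −0.69 ± 0.25, SE), with 11 of 12 below the fresh median. Pdk3, a kinase that inhibits pyruvate dehydrogenase, was at 0.54 ± 0.15 (SE). Only 6 of 27 replication-dependent histone genes, whose mRNAs lack a poly(A) tail, passed the filter, and 0 had an unadjusted p below 0.05.

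The 3′ ends of genes measured higher and lower differed, and so did the levels of these genes. A cytoplasmic polyadenylation element was sought as TTTTAT or TTTTAAT on the sense strand in the last 100 bases of the annotated transcript. For each gene the longest protein-coding transcript with a complete 3′ end was used. Genes whose 3′ untranslated region in it was under 100 bases were left out. This kept 8121 of the 8428 genes tested. Of genes with an unadjusted p below 0.05 it kept 491 of 500 higher and 511 of 553 lower ones. The element was present in 1810 of the 8121 genes (22.3%), in 167 of the 491 higher (34.0%) and in 61 of the 511 lower (11.9%). A poly(A) signal was found in 79.5% of all 8121 ends, 88.0% of the higher and 74.8% of the lower ones. Of the 15 leading genes in each direction, 6 of the higher ones (Zdhhc13, Pole3, Siah1b, Msantd4, Fbxl5 and Fam107b) and 1 of the lower ones (Samd10) carried the element. In Zdhhc13 the match nearest the end starts 12 bases from it, after the poly(A) signal, and in Fbxl5 no signal was found. A match of these letters does not show that the site is used, and alternative 3′ ends were not analysed here.

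Genes with the element were also more abundant, so their differences were set out by level. The element was present in 17.5% of genes in the lowest quintile of mean level and in 31.2% of those in the highest. Genes higher at an unadjusted p below 0.05 had median log2 CPM values of 7.09 with the element and 6.97 without it. For lower genes these medians were 4.09 and 3.93. The shares among higher and lower genes given above were not matched for level. The median log2 fold change was 0.06 with the element and −0.07 without it. Within the lowest quintile of mean level the medians were −0.12 with and −0.27 without, in the middle quintile 0.02 and −0.11, and in the highest quintile 0.15 and 0.14, so the gap narrowed with level. Within library numbers under 20, the element was held by 28.6% of genes higher and 18% of genes lower at an unadjusted p below 0.05. Within those of 20 and over it was held by 37.2% and 11.4%, and without the 4 libraries by 34.8% and 14.1%. Short 3′ untranslated regions also went with lower values: in the shortest quintile, 100 to 461 bases, 10.7% of genes were lower and 3.45% higher. Regions under 100 bases were not included. These are descriptions over genes, which are not independent of one another, and no test was made of them.

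**Figure D5:**
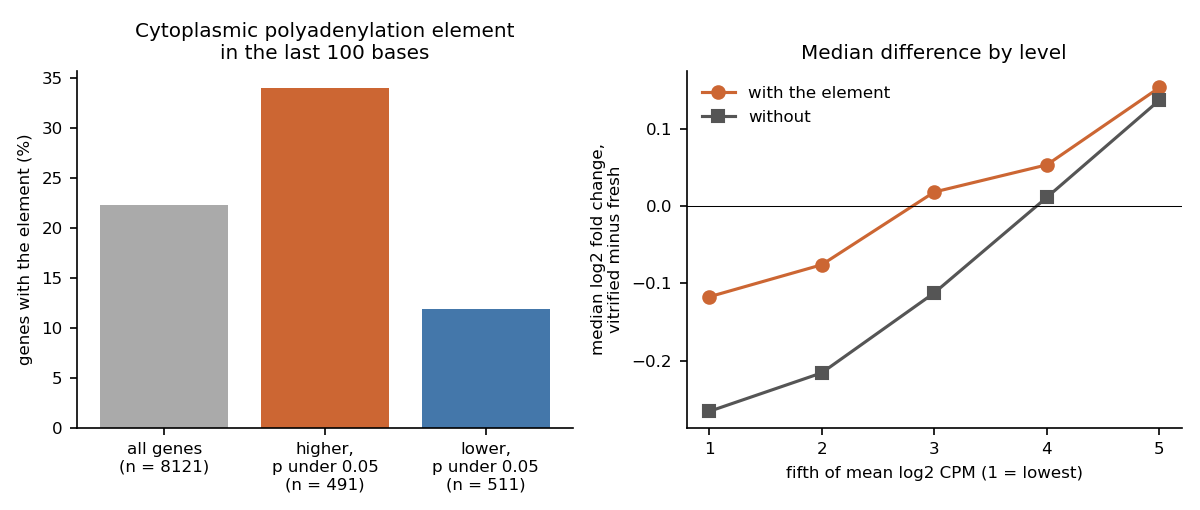
Left, share of genes (vertical axis, %) with a cytoplasmic polyadenylation element in the last 100 bases, counting only genes with an annotated 3′ untranslated region of at least 100 bases. Bars are for all such genes and for those higher or lower in vitrified oocytes at an unadjusted p below 0.05 (22.3%, 34.0% and 11.9%). The shares are not matched for level, and over all these genes the share was 17.5% in the lowest quintile of level and 31.2% in the highest. Right, median log2 fold change, vitrified minus fresh, by quintile of mean log2 CPM for genes with and without the element, which meet in the highest quintile at 0.15 and 0.14.

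Base composition of the transcripts went with the difference in opposite directions in the 2 ranges of library numbers. From the quintile of genes lowest in GC to the quintile highest, the median log2 fold change went from 0.07 to −0.20 over all MII oocytes. It went from 0.21 to −0.38 within library numbers under 20 and from −0.13 to 0.09 within those of 20 and over.

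Responses in MII oocytes were set beside those in GV oocytes, which were fitted on their own 8 oocytes, and the difference of the responses was tested in 1 fit of all 32. That difference passed the threshold for 0 of 11470 genes (0%) with edgeR (467, 4.07%, at an unadjusted p below 0.05) and for 8 with DESeq2. Of the 15 genes measured higher in MII oocytes, 9 were above 0 in GV oocytes too (51.9% of genes were), and of the 15 measured lower, 11 were below 0 (48.1% were). Cox6c was at −0.47 in GV and −1.31 in MII oocytes, Zdhhc13 at 0.69 and 0.60, and Sytl4 at 0.55 and 0.52. Pole3 was at −0.71 in GV oocytes and 0.53 in MII oocytes, a difference of 1.25 (unadjusted p = 9.07e-05), and Hsf5 (−0.78 and 0.61) and Agk (−0.55 and 0.63) had opposite signs as well. Cct2 was at 0.44 and −0.77. With 4 GV oocytes per treatment the GV values carry wide errors, and none of these 30 genes had an unadjusted p below 0.05 in GV oocytes.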

How the data were processed

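RNA of single MII oocytes, 12 per treatment, and of 8 GV oocytes was sequenced from SMART-Seq v4 libraries, per the labels. The submitters' processing notes name HISAT2, featureCounts and the mm10 build but no versions. The values deposited by the authors are whole-number counts for GV oocytes. The deposited MII values resemble estimated counts, because a share of 11.7% to 19.7% in each oocyte is fractional. Which step of the authors made these estimated counts fractional is not stated in the sources used here. Because count tests were planned, the fractional values were rounded. Of 13202 entries 27 exact repeats were removed, leaving 13175 genes. Table columns left unused numbered 0.

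Genes were filtered with filterByExpr of edgeR 4.0.16 (minimum count 10, minimum total 15), leaving 8428. Libraries were scaled by the trimmed mean of M values (TMM). Genes were tested, two-sided, by the quasi-likelihood F test in R 4.3.3, and p was adjusted by the Benjamini-Hochberg method with a threshold of 0.05. The filter can pass a gene through 1 group alone, so list counts are read against the share of all genes tested, and for ribosomal, respiratory and some other lists values from the fit with no filter are added. Depth ran from 5300208 to 12206512 counts per MII oocyte. The edgeR steps were also run on simulated counts with known changes, and how many of these were recovered is not given here. DESeq2 1.42.0, limma-voom (limma 3.58.1), other scalings and filters, the range of library numbers (under 20, or 20 and over) as a covariate or fitted separately, a replicate block, and fits without single or several libraries were the alternatives. Genes named are the 15 smallest p in each direction whose mean log2 CPM reaches 4 and whose symbol is established, up to 3 smallest p per list, and 15 genes by name, of which some are left out for brevity. Group totals were compared with permutation tests of 100000 resamples. Positions and 3′ ends come from GENCODE M21 on GRCm38. The comparison, gene lists and rules were chosen with earlier results of these data known.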

Additional observations from a re-analysis of the deposited data

How the results depend on the processing

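The count of 0 genes past the threshold was 52 with DESeq2, and 1 (Cox6c) with total count scaling, with a filter at 10 CPM in 12 oocytes and with all 32 oocytes in the fit. Leaving out each oocyte in turn gave 0 to 1, with 1 without fresh replicate 6 or 8, and 790 (without fresh replicate 7) to 1239 genes (without vitrified replicate 9) at an unadjusted p below 0.05. The 1053 genes at an unadjusted p below 0.05 became 1617 with no filter on low counts, 402 of 3994 genes tested among those whole in every MII oocyte, 1542 within library numbers under 20 (14 oocytes) and 391 within those of 20 and over (10 oocytes). The cause was not tested for the 2 ranges. Without the 4 libraries there were 903, and without the 5 with many cumulus transcripts 749, both with 0 past the threshold. The count for the difference between stages was 8 with DESeq2. Without the 4 libraries the difference in total counts was −1608861 (permutation test, p = 0.00099), against −917831, and vitrified replicate 1, with 12206512 counts, is among those left out.

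Within library numbers of 20 and over the sign was reversed for Mrpl45 (−0.045), Anapc1 (0.091), Cdca5 (−0.11), Dnmt1 (0.18), Zp1 (0.095), Chek1 (−0.16), Mos (0.21), Btg4 (−0.044), Dppa3 (−0.28) and Slc6a9 (0.89). Dppa3 was at −0.10 with total count scaling, and Slc6a9 at 0.11 with limma-voom and 0.020 with the replicate block. Leaving out 1 oocyte gave −0.44 to 0.033 for H1f1, −0.19 to 0.055 for Mos and −0.10 to 0.19 for Dppa3. The 18 cytosolic ribosomal and 16 complex I genes lower at an unadjusted p below 0.05 became 6 and 9 without fresh replicate 11, where 566 of all 8472 genes were lower. The list of mitochondrial dynamics and biogenesis went from −0.37 to −0.01 without fresh replicate 11 and to 0.07 within library numbers under 20. Other list medians also differed between library numbers under 20 and those of 20 and over. They were 0.24 and −0.21 for the subcortical maternal complex and Nlrp genes, and −0.24 and 0.11 for maternal nuclear factors. The Mos-MAPK list had −0.15 and 0.25, mitochondrial ribosomal proteins 0.05 and −0.65, and the proteasome 0.02 and −0.58. Antioxidant enzymes had −0.09 and −0.54, and pyruvate and citric acid cycle genes 0.12 and −0.17.

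Replicate numbers are shared by the groups. Over the 12 same-numbered pairs, correlations of the deviations from the group means ran from −0.34 to 0.33, and 6 were above 0.1. Of the fresh oocytes, 0 correlated best with the vitrified oocyte of their own replicate number. A replicate block gave 0 genes past the threshold and 776 at an unadjusted p below 0.05. The interval lay within 2-fold for only 12.1% of genes in the lowest quintile of level, and the part of depth in this was not tested.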
